A study of Homo sapiens with 8 samples.

Results

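The 8 genes described here belong to cholesterol synthesis and its control by sterols. They are HMGCS1, IDI1, FDFT1, SQLE, LSS and CYP51A1, which encode enzymes of the pathway, and INSIG1 and SREBF2, which encode regulators of it. They were chosen by name from 34164 genes listed in at least 1 of 2 deposited tables, with their values in these libraries already known. All 8 are listed in both tables, and all 8 had at least 1 FPKM (fragments counted on a gene, per unit of its length and of the depth of the library) in at least 1 library of every comparison. None of the 8 takes cholesterol up from outside the cell, and genes of uptake and trafficking are given from a separate list.

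RNA was sequenced from Kyse510, an established human esophageal squamous carcinoma cell line, as 8 libraries, each the only library of its condition. In the inhibitor arm, cells received DMSO vehicle, SP2509 (an inhibitor of the histone demethylase LSD1) at 7 µM, UNC0642 (an inhibitor of the histone methyltransferase G9a) at 7 µM, or both, for 2 days. The dose of each compound in the combination was not given separately in the sources used here. In the knockdown arm, Kyse510 cells carried a lentiviral, Dox-inducible hairpin against LSD1 (shLSD1) or G9a (shG9a), went through 14 days of puromycin selection, and were left without doxycycline (Dox) or given Dox for 2 days. All 4 libraries of that arm therefore come from puromycin-selected cells, with 1 hairpin and 1 line per target. No library with a control hairpin and Dox was analysed here, so an effect of Dox and an effect of the knockdown cannot be told apart.

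The libraries held 15662035 to 17889466 reads as recovered from the deposited values. KDM1A, which encodes LSD1, was at 26.0 FPKM in the shLSD1 line without Dox and 6.29 FPKM with Dox. EHMT2, which encodes G9a, was at 7.85 FPKM in the shG9a line without Dox and 4.76 FPKM with Dox. In every library, 6 to 8 of 8 squamous epithelial markers reached 1 FPKM, and KRT5, TP63 and CDH1 were among them. Markers of fibroblasts, leukocytes, endothelium and hepatocytes summed to 3.65 to 7.02 FPKM per library, with 1 or 2 of 8 at 1 FPKM or more. The leukocyte marker PTPRC was at 0.0425 FPKM or less in every library.

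Cells make cholesterol from acetyl-CoA in a first arm that ends in isoprenoid units and a second arm that joins them into squalene and closes and trims the sterol rings. The transcription factor SREBP-2, the product of SREBF2, drives the genes of both arms and genes of sterol uptake. When membranes are rich in sterols, the INSIG proteins hold the SREBP escort SCAP in the endoplasmic reticulum and the factor stays inactive, and INSIG1 is itself a target of the factor. SREBP binds DNA weakly on its own and commonly acts beside NF-Y, which binds CCAAT boxes, and Sp1, which binds GC boxes.

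Promoters of 6 members were found in the RefSeq promoter table (GRCh38.p14, which covers the bases just before each start and the first ones after it), namely HMGCS1, LSS, CYP51A1, IDI1, INSIG1 and SREBF2. The stretches below are from genes whose values are described next, and each holds a CCAAT box, with a sterol regulatory element only in SREBF2. They read 5′ to 3′ on the gene's strand, and capitals mark a sterol regulatory element, the first stretch of capitals in SREBF2, and the CCAAT box, which reads ATTGG where it lies on the opposite strand.
SREBF2, chr22:41832955-41833014, plus strand: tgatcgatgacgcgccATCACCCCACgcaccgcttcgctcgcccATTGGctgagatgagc
HMGCS1, chr5:43313503-43313582, minus strand: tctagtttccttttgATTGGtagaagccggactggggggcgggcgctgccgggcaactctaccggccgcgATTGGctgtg
INSIG1, chr7:155297698-155297767, plus strand: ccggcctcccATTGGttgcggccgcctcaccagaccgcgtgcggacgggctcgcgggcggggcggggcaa
LSS, chr21:46228885-46228944, minus strand: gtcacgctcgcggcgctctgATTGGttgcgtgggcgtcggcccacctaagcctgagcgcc

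With both strands searched, CCAAT occurred in the promoters of 5 of 6 members and of 14 of the 17 cholesterol synthesis genes that are in the table, against 39.7% of all 27305 genes. The GC box GGGCGG occurred in 6 of 6 members and in 15 of 17 synthesis genes, against 48.3% of all genes. The sterol regulatory element in the spelling printed for SREBF2 was present in 0.0586% of all genes, and among the members it was found only in SREBF2, 134 bases before the start. The shorter TCACNCCAC, which overlaps the longer element, was in 1.39% of all genes, in SREBF2 and in 0 of 17 synthesis genes. The E-box CACGTG, in 8.77% of all genes, was found in INSIG1 at 55 bases before the start and in LSS at 40 bases after it. These matches describe the letters of each window and were not compared with any binding data.

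Each treated library was compared with its own control, the 3 inhibitor libraries with vehicle and each Dox library with the same line without Dox. A gene was called higher or lower when the ratio of (FPKM + 1) reached 1.3-fold, and rose and fell are used for called genes only. With 1 library per condition there is no replicate error and no test. The difference between the shLSD1 and shG9a lines without Dox is given instead as the spread between separately made lines, which is not a replicate error. Between those lines, 4.51% of 12449 genes were called higher and 3.04% lower in shLSD1, and 1 of the 8 members, HMGCS1, was called lower. Folds in parentheses with an interval are ratios of plain FPKM with a 95% Clopper-Pearson interval on the reads behind them, which covers counting error only.

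With Dox, 6 of 8 members rose in the shLSD1 line, where 24.8% of 12970 genes were called higher and 12.3% lower, and the same 6 rose in the shG9a line, where 32.9% of 13080 genes were called higher and 17.6% lower. They were HMGCS1, IDI1, FDFT1, SQLE, LSS and INSIG1, while CYP51A1 and SREBF2 did not reach 1.3-fold in either line. No member fell. These values took part in the choice of the genes, so the counts are a description. In both Dox comparisons the median over all genes lay above 0, with log2 changes of 0.13 in shLSD1 and 0.18 in shG9a, against member medians of 0.73 and 0.94. After each comparison was centred on its median over genes that reached 5 FPKM, 17.0% of genes were called higher and 16.6% lower in shLSD1, 22.5% higher and 22.5% lower in shG9a, and the 6 members stayed called in each line. In both lines without Dox these 6 had lower FPKM than the vehicle cells of the other arm, which was normalised separately. The rises are therefore relative to each line and not to vehicle cells.

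**Figure D1:**
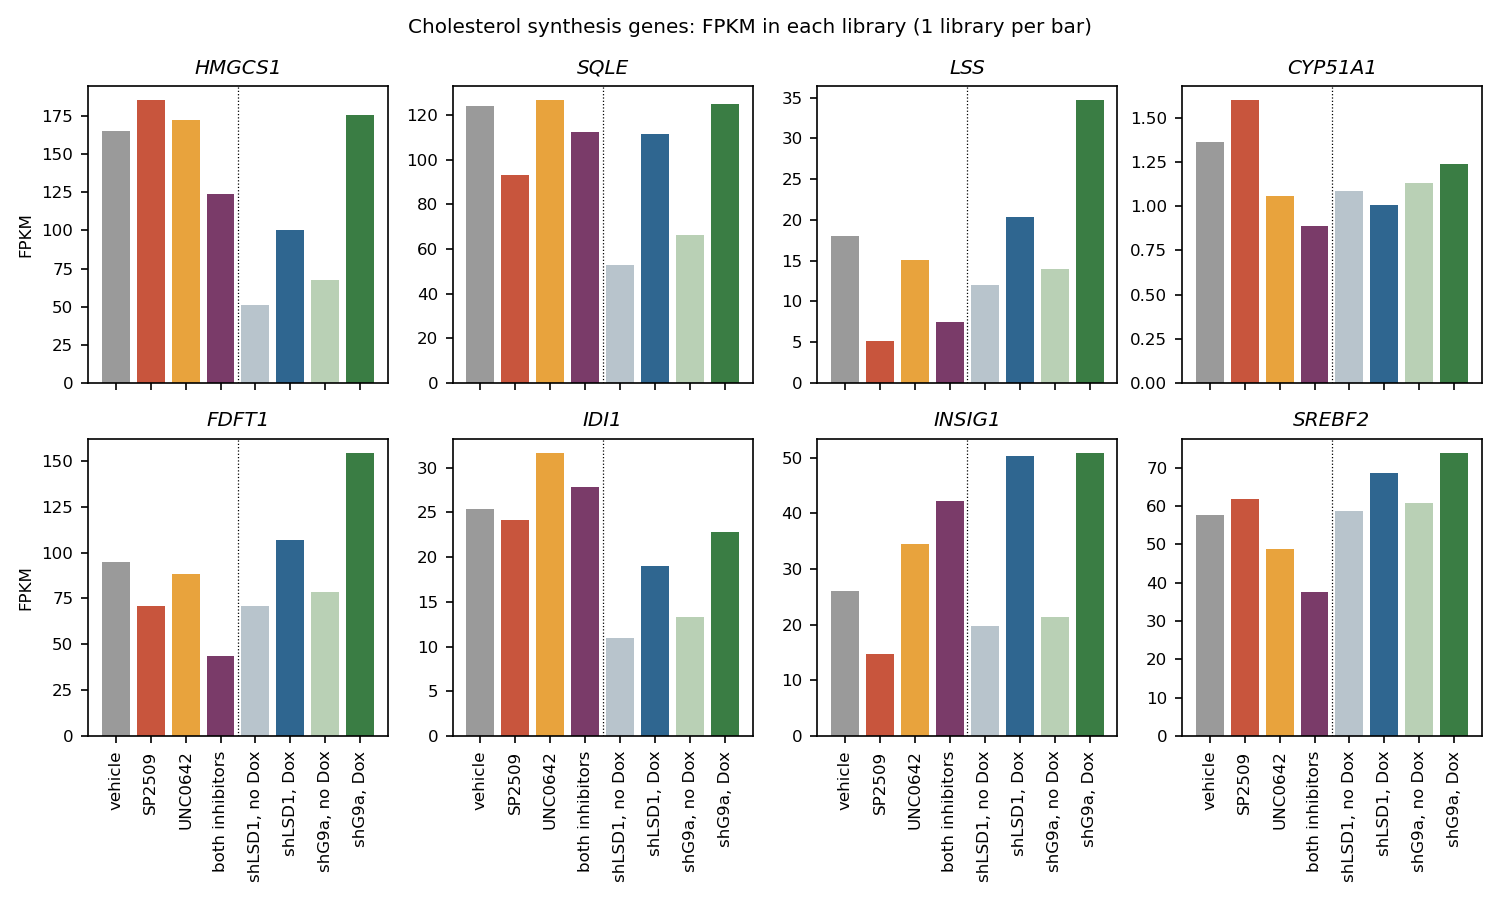
FPKM of each of the 8 genes (vertical axes from 0, own scale per gene) in the 8 libraries, with 1 library per bar and the inhibitor arm left of the dotted line. HMGCS1, SQLE, LSS, FDFT1, IDI1 and INSIG1 are higher with Dox than without it in each line, and LSS is lowest with SP2509, at 5.20 FPKM. The 2 arms were normalised separately.

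HMGCS1 (ENSG00000112972, chr5:43289395-43313512, minus strand, GRCh38 as the files give it) encodes the cytosolic synthase that makes HMG-CoA, an early intermediate of the pathway. It was at 51.1 FPKM in the shLSD1 line without Dox and 100.1 FPKM with Dox, and at 67.7 and 175 FPKM in the shG9a line. Both Dox libraries lay above both libraries without Dox. The change was 1.96-fold (interval 1.89 to 2.03) in shLSD1 and 2.59-fold (interval 2.51 to 2.67) in shG9a, against a difference of 1.32-fold (interval 1.27 to 1.38) between the lines without Dox. In the inhibitor arm it was at 165 FPKM under vehicle, 185 with SP2509, 173 with UNC0642 and 124 with both. Only the combination was below vehicle, at 0.749 of its level (interval 0.729 to 0.769), a gap as wide as that between the lines without Dox, where shLSD1 was at 0.755 of shG9a.

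IDI1 (ENSG00000067064, chromosome 10, minus strand) encodes the isomerase that interconverts the basic isoprenoid units. It was at 11.0 FPKM without and 19.0 FPKM with Dox in the shLSD1 line, and at 13.3 and 22.8 FPKM in the shG9a line. Its rises were nearly equal in size, at 1.73-fold (interval 1.59 to 1.89) and 1.71-fold (interval 1.58 to 1.86). With vehicle, SP2509, UNC0642 and both inhibitors it was at 25.4, 24.1, 31.6 and 27.8 FPKM, and none of these treatments reached 1.3-fold. A lncRNA gene on the opposite strand, IDI2-AS1, overlaps 46.4% of its span in the inhibitor table and 50.4% in the knockdown table, at no more than 0.557 FPKM, and whether reads were counted by strand was not given in the sources used here.

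FDFT1 (ENSG00000079459, chromosome 8, plus strand) encodes squalene synthase, the first enzyme committed to sterols. It was at 70.7 FPKM without and 107 FPKM with Dox in the shLSD1 line, and at 78.4 and 154 FPKM in the shG9a line, rises of 1.51-fold (interval 1.47 to 1.56) and 1.97-fold (interval 1.91 to 2.03). In the inhibitor arm FDFT1 was at 95.1 FPKM under vehicle, 70.7 with SP2509, 88.6 with UNC0642 and 43.8 with both, so that it was lowest with the combination, 2.17-fold below vehicle (interval 2.09 to 2.26). The call with SP2509 was lost after centring, and UNC0642 gave none.

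SQLE (ENSG00000104549, chromosome 8, plus strand) encodes squalene epoxidase, a rate-limiting step of the sterol arm. It was at 52.7 FPKM without and 111 FPKM with Dox in the shLSD1 line, and at 66.3 and 125 FPKM in the shG9a line. The rises were 2.11-fold (interval 2.036 to 2.196) and 1.88-fold (interval 1.82 to 1.95). With vehicle, SP2509, UNC0642 and both inhibitors it was at 124, 93.0, 127 and 113 FPKM. SP2509 alone reached the threshold, at 1.33-fold lower (interval 1.29 to 1.38), and it did not after centring.

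LSS (ENSG00000160285, chr21:46188141-46228824, minus strand) encodes lanosterol synthase, which closes the sterol rings. It was at 12.1 FPKM without and 20.4 FPKM with Dox in the shLSD1 line, and at 14.0 and 34.7 FPKM in the shG9a line, rises of 1.69-fold (interval 1.59 to 1.80) and 2.48-fold (interval 2.34 to 2.63). With vehicle it was at 18.0 FPKM, with SP2509 at 5.20, with UNC0642 at 15.1 and with both at 7.42. LSS thus showed the largest fall of the 8 genes with SP2509, 3.47-fold (interval 3.18 to 3.79), and with both inhibitors, 2.43-fold (interval 2.25 to 2.63). With UNC0642 alone the difference was 1.19-fold (interval 1.12 to 1.27) and was not called.

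CYP51A1 (ENSG00000001630, chromosome 7, minus strand) encodes lanosterol 14-alpha-demethylase. It was at 1.36 FPKM under vehicle, 1.60 with SP2509, 1.06 with UNC0642 and 0.887 with both inhibitors. In the knockdown arm it was at 1.08 and 1.004 FPKM without and with Dox in shLSD1, and at 1.13 and 1.24 FPKM in shG9a. This was the lowest of the 8 levels in every library, on 61 to 116 reads, whereas the other 7 genes rested on 670 to 15528 reads per library. With Dox the interval of its ratio ran from 0.647 to 1.32 in shLSD1 and from 0.781 to 1.55 in shG9a, so a change of 1.3-fold was hardly detectable at this depth. With both inhibitors CYP51A1 was at 0.651 of vehicle (interval 0.461 to 0.913). It was not called there on the ratio of (FPKM + 1), which understates changes of genes near 1 FPKM, and with a pseudocount of 0.1 FPKM 5 members rather than 4 were called lower with both inhibitors. In the inhibitor table its span lies almost wholly within that of LRRD1, a gene on the same strand, and how reads shared by both were assigned was not given in the sources used here. Start or end differed between the tables for CYP51A1 and IDI1, as for 3.49% of the 26360 genes listed in both.

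INSIG1 (ENSG00000186480, chr7:155297776-155310235, plus strand) encodes a sterol sensor that retains SCAP in the endoplasmic reticulum. In the shLSD1 line it was at 19.7 FPKM without and 50.2 FPKM with Dox, and in the shG9a line at 21.3 and 50.8 FPKM. The lines started and ended at similar levels. Its rises, 2.54-fold (interval 2.38 to 2.72) and 2.38-fold (interval 2.23 to 2.54), were matched or exceeded by 1.33% and 2.60% of all genes, respectively. In the inhibitor arm INSIG1 was at 26.1 FPKM under vehicle, 14.8 with SP2509, 34.5 with UNC0642 and 42.2 with both. It fell 1.76-fold with SP2509 (interval 1.62 to 1.91), rose 1.32-fold with UNC0642 (interval 1.24 to 1.41) and rose 1.62-fold with both (interval 1.52 to 1.73). The sum of the log2 changes with each inhibitor alone was -0.38, and the log2 change with the combination was 0.68.

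SREBF2 (ENSG00000198911, chr22:41833079-41907308, plus strand), the gene of SREBP-2, stayed within 1.3-fold in both Dox comparisons, at 58.8 and 68.7 FPKM without and with Dox in shLSD1 and at 60.8 and 73.8 FPKM in shG9a. Its log2 changes of 0.22 and 0.28 were close to the medians of all genes in those comparisons. With vehicle, SP2509, UNC0642 and both inhibitors SREBF2 was at 57.7, 61.8, 48.8 and 37.5 FPKM. It fell with the combination, 1.54-fold (interval 1.48 to 1.60), and with neither inhibitor alone. The microRNA gene MIR33A lies within the SREBF2 span on the same strand.

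With SP2509, 0 of 8 members rose and 4 fell, where 21.0% of 13342 genes were called higher and 39.9% lower. The members that fell were LSS, INSIG1, FDFT1 and SQLE. The member median was -0.24 on the log2 scale, near the median of -0.21 over all genes. After centring, 24.6% of genes were called higher and 34.9% lower, and of the 4 members only LSS and INSIG1 stayed called. With UNC0642, INSIG1 rose and no member fell, where 18.2% of 13244 genes were called higher and 16.9% lower. The member median was -0.04, against -0.01 over all genes. With both inhibitors, INSIG1 rose and HMGCS1, LSS, FDFT1 and SREBF2 fell, where 31.4% of 13907 genes were called higher and 31.7% lower. The member median there was -0.37, against -0.02 over all genes. With so few genes, 4 of 8 that fell is near the background with SP2509 and somewhat above it with the combination. The 3 inhibitor comparisons share the vehicle library, so a high or low value in that library moves all of them.

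**Figure D2:**
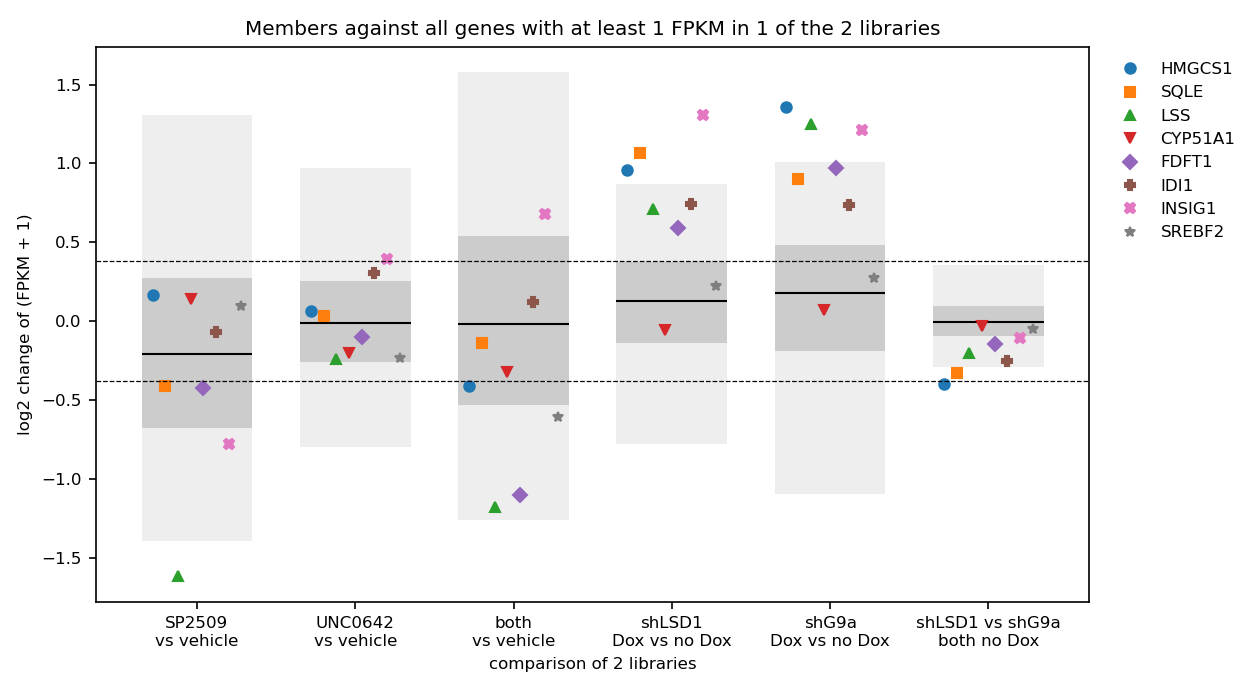
Log2 change of (FPKM + 1) of the 8 genes (symbols) in the 5 comparisons and between the lines without Dox, on the distribution of all genes with at least 1 FPKM in at least 1 of the 2 libraries (light bars span the 5th to 95th percentile, dark bars the 25th to 75th, lines mark the median). Dashed lines mark 1.3-fold. With Dox, 6 genes lie above the upper dashed line in each line, and LSS lies lowest of the 8 with SP2509, at -1.62.

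The rest of the pathway was read from a list of 22 cholesterol synthesis genes, 6 of which are the enzymes above. With Dox, 17 of 22 rose and 0 fell in shLSD1, and 18 of 22 rose and 0 fell in shG9a. Among all genes, 24.8% were called higher in shLSD1 and 32.9% in shG9a. After centring, 15 rose and 0 fell in shLSD1, and 16 rose and 1, LBR, fell in shG9a. The centred shares of all genes called higher were 17.0% and 22.5%. The medians of the 22 genes were 0.67 and 0.78 on the log2 scale, against 0.13 and 0.18 over all genes. Of the 16 genes of the list that are not members, 12 rose and 0 fell in shLSD1, 13 rose and 0 fell in shG9a, and 10 rose in both lines, where 13.8% of the 12303 genes tested in both did. The list was written with results of these data known, and its counts are a description like those of the members. Between the lines without Dox, all 22 had lower values in shLSD1, with a median log2 difference of -0.16, and 1, HMGCS1, was called.

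MVK, the gene of mevalonate kinase, rose by 0.77 and 1.03 on the log2 scale with Dox in shLSD1 and shG9a. EBP, the gene of a sterol isomerase, had log2 changes of 0.66 and 1.26 there, and NSDHL, the gene of a sterol dehydrogenase, 0.73 and 1.16. LBR, which encodes a sterol reductase of the inner nuclear membrane, was the gene of the list with the least alike values, a log2 change of 0.94 in shLSD1 and of -0.37, short of the threshold, in shG9a.

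With SP2509, 0 of 22 synthesis genes rose and 14 fell, where 39.9% of all genes were called lower. After centring 9 of 22 fell, a share near the 34.9% of all genes. The median of the 22 was -0.41, against -0.21 over all genes. LBR and TM7SF2, which encode reductases acting on the same sterol bond, fell by 1.41 and 1.10 on the log2 scale. With UNC0642, LBR rose, and 3 of 22 fell, MVD and TM7SF2 among them, a share no higher than the 16.9% of all genes, with the median at -0.10. With both inhibitors, EBP rose and 12 of 22 fell, where 31.7% of all genes were called lower, with the median at -0.42 against -0.02 over all genes.

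Genes that rose with Dox in both lines and fell with SP2509 were 4 of 8 members (SQLE, LSS, FDFT1 and INSIG1) and 8 of the 16 synthesis genes that are not members, where 8.77% of 11520 genes had that pattern. The SP2509 calls of SQLE and FDFT1 were lost after centring. Among the genes that are not members, PMVK then lost its shLSD1 call, and ERG28 its shLSD1 and SP2509 calls. No centred share of all genes is given for this pattern. Genes that rose with Dox in both lines and fell with both inhibitors were 3 of 8 members (HMGCS1, LSS and FDFT1) and 6 of the 16, where 4.41% of 11675 genes had it. LSS had opposite calls in the Dox lines and in both of these inhibitor treatments with and without centring, FDFT1 only without it for SP2509, while INSIG1 rose with both inhibitors and HMGCS1 was not called with SP2509. Members and list were chosen with these contrasts known, so the shares describe them and are no test.

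**Figure D3:**
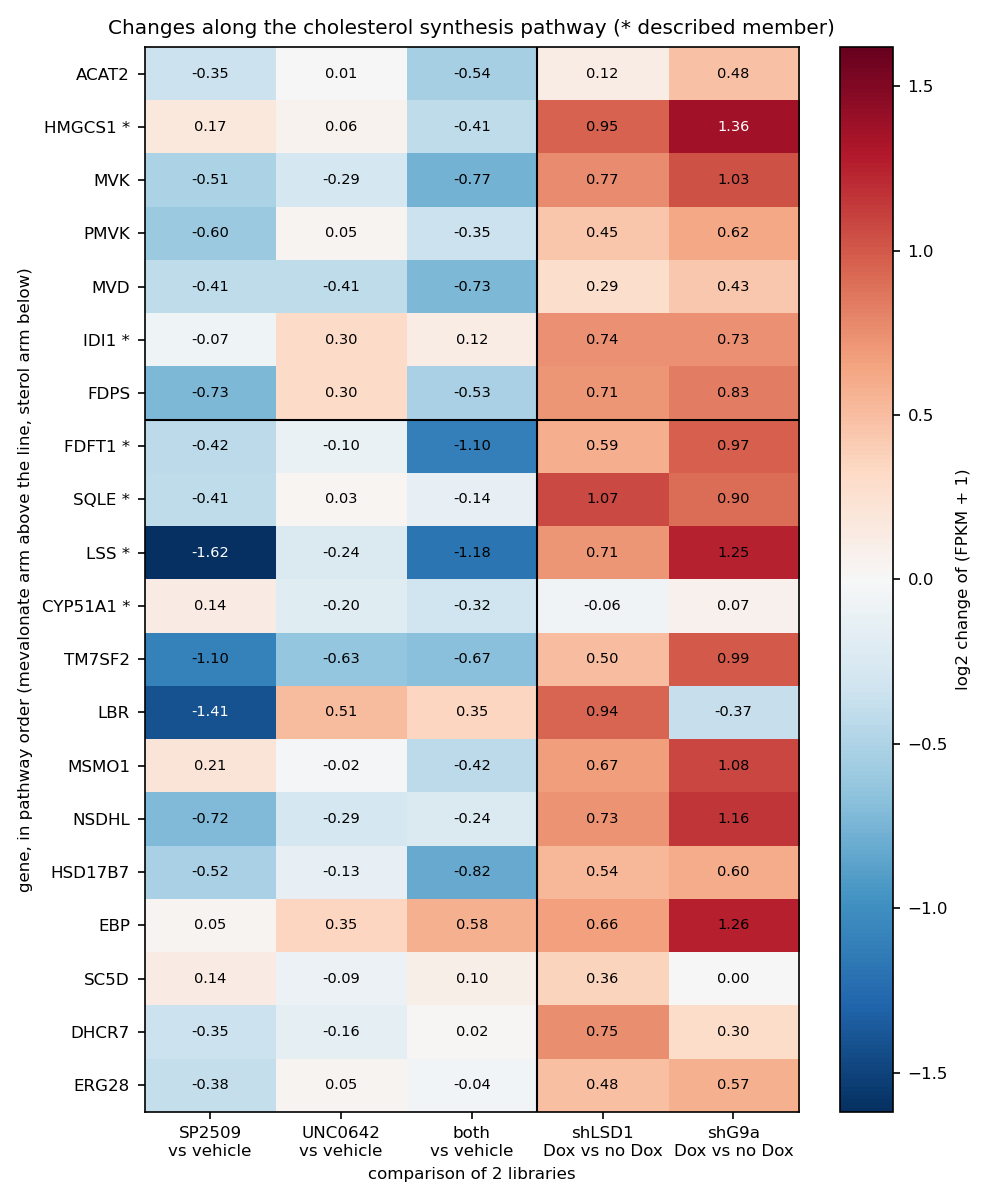
Log2 change of (FPKM + 1) of 20 of the 22 cholesterol synthesis genes (rows, in pathway order, members marked with an asterisk) in the 5 comparisons (columns), with red for higher and blue for lower. The right-hand Dox columns are mostly red, with 16 and 16 of the 20 genes called higher, and the SP2509 column is mostly blue, with 12 called lower.

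Of 14 genes of SREBP regulation, 7 rose and 1 fell with Dox in shLSD1, where 24.8% of all genes rose, and 4 rose and 1 fell in shG9a, a share of rises no higher than the 32.9% of all genes in the latter. After centring, 4 rose and 1 fell in shLSD1, and 2 rose and 2 fell in shG9a. The centred shares of all genes were 17.0% higher and 16.6% lower in shLSD1, and 22.5% each way in shG9a. INSIG2, the gene that fell in each line with and without centring, is the paralog of INSIG1, and its protein also retains SCAP. INSIG2 was at 24.0 FPKM without and 6.48 FPKM with Dox in shLSD1, and at 22.6 and 6.84 FPKM in shG9a. It fell 3.70-fold (interval 3.33 to 4.12) and 3.30-fold (interval 2.97 to 3.67), while INSIG1 rose in the same libraries. In the inhibitor arm INSIG2 was at 6.61 FPKM with vehicle and higher in each treated library, at 19.6 with SP2509, 16.5 with UNC0642 and 21.5 with both. The rises were 2.97-fold (interval 2.66 to 3.32), 2.49-fold (interval 2.22 to 2.80) and 3.25-fold (interval 2.91 to 3.64), all against the same vehicle library.

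SREBF1, which encodes SREBP-1, went from 33.8 to 53.6 FPKM with Dox in shLSD1 and from 35.6 to 46.7 FPKM in shG9a, where the call was lost after centring. With vehicle it was at 51.4 FPKM, with SP2509 at 15.7, with UNC0642 at 35.8 and with both at 13.6, which are falls of 3.27-fold (interval 3.11 to 3.43), 1.43-fold (interval 1.38 to 1.49) and 3.77-fold (interval 3.58 to 3.98). SPRING1, which encodes a protein needed for SREBP activation, rose with Dox by 0.99 and 1.19 on the log2 scale. Its log2 changes were -0.97 with SP2509, 0.19 with UNC0642 and 0.92 with both, in the same order as those of INSIG1. SCAP itself had log2 changes of 0.24 and 0.14 with Dox and was lower with SP2509 (-0.51) and both inhibitors (-0.50). Among the 14 genes, 1 rose and 6 fell with SP2509, 2 rose and 2 fell with UNC0642, and 5 rose and 7 fell with both. In the same order, 21.0%, 18.2% and 31.4% of all genes were called higher and 39.9%, 16.9% and 31.7% lower. The share that fell with SP2509 and the shares with UNC0642 were near these.

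**Figure D4:**
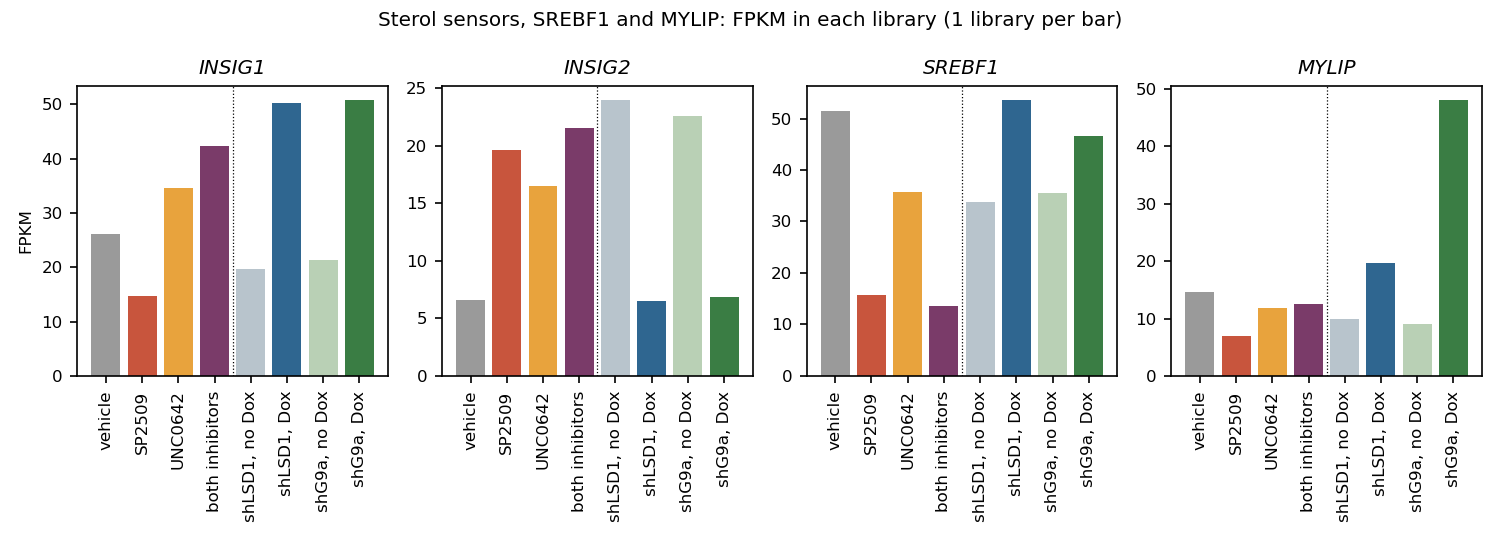
FPKM of INSIG1, INSIG2, SREBF1 and MYLIP (vertical axes from 0, own scale per gene) in the 8 libraries, with 1 library per bar and the inhibitor arm left of the dotted line. INSIG2 is low in both Dox libraries, at 6.48 and 6.84 FPKM, where INSIG1 is high, and MYLIP is highest with Dox in shG9a, at 48.1 FPKM. The 2 arms were normalised separately.

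The uptake and trafficking list had no shared direction. MYLIP, which encodes a ubiquitin ligase that targets lipoprotein receptors, went from 9.94 to 19.8 FPKM in shLSD1 and from 9.11 to 48.1 FPKM in shG9a, rises of 1.99-fold (interval 1.79 to 2.21) and 5.28-fold (interval 4.78 to 5.85). NPC2, which carries cholesterol out of lysosomes, rose by 1.305, 1.08 and 1.71 on the log2 scale with SP2509, UNC0642 and both, and fell by 0.44 with Dox in shG9a. STARD4, a carrier of cholesterol between membranes, fell by 0.95, 0.99 and 1.52 with the same inhibitor treatments. Of the 12 genes of the list, 4 rose and 1 fell with Dox in shLSD1, 2 rose and 5 fell in shG9a, 3 rose and 4 fell with SP2509, 4 rose and 2 fell with UNC0642, and 5 rose and 4 fell with both. After centring, 4 rose and 3 fell in shLSD1, and 2 rose and 6 fell in shG9a. The centred shares of all genes were 17.0% higher and 16.6% lower in shLSD1, and 22.5% each way in shG9a. Without centring, 24.8%, 32.9%, 21.0%, 18.2% and 31.4% of all genes were called higher in shLSD1, shG9a, SP2509, UNC0642 and both. In the same order, 12.3%, 17.6%, 39.9%, 16.9% and 31.7% were called lower. Several shares of the list are near these, such as 4 of 12 lower with SP2509 against 39.9%. The 5 of 12 lower with Dox in shG9a lay above the 17.6% of all genes.

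Among 4580 genes with at least 5 FPKM in all 8 libraries, the 10 outside the lists with 5 log2 changes nearest to the median profile of the members included BCAT2, FUBP1, MRPL50, ITPA, KIF22, NUP43, AP1M2, FAM35A and PPT1. The Euclidean distances over the 5 comparisons, 3 of which share the vehicle library, ran from 0.132 for BCAT2 to 0.376 for PPT1. BCAT2, which encodes a mitochondrial aminotransferase of branched-chain amino acids, had log2 changes of -0.28, -0.11 and -0.31 with SP2509, UNC0642 and both, and of 0.65 and 0.92 with Dox in shLSD1 and shG9a. The nearest genes of the pathway were SQLE at rank 23 and MSMO1 at rank 33, so the median profile was followed less closely by the synthesis genes themselves than by those 10.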

How the data were processed

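Paired-end reads of 150 bases were filtered by the authors for quality and contamination and mapped to GRCh38.87. The authors deposited the result as FPKM, in a table for each arm, and the 2 tables were normalised separately. Aligner, counter and strand use were not given in the sources used here. Conditions came from the sample labels. The members and gene lists were chosen with earlier results of these data known.

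Log2 ratios of (FPKM + 1) were computed for 5 comparisons among genes with at least 1 FPKM in at least 1 of the 2 libraries, and called at 1.3-fold. No test was run, as each condition is 1 library. Reads were recovered from the steps of the FPKM values, exact to within 0.01 reads for 100% of single-exon genes. Named were the members, a set that includes KDM1A, EHMT2, SCAP, SREBF1, INSIG2, MYLIP and ABCA1, up to 4 genes per list and comparison with the largest change, and the 10 genes of most similar profile. A few genes that this rule names are not reported here, though counts and medians of the lists include them. Alternatives were another pseudocount, filter, scaling, threshold and control. Python 3.11.15, pandas 2.3.3, numpy 2.4.6 and scipy 1.17.1 were used. The calls were tested on simulated libraries with changes of at least 2-fold, in genes of at least 5 FPKM, and with counting error only. That simulation does not show how reliable calls near 1.3-fold or near 1 FPKM are.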

Additional observations from a re-analysis of the deposited data

Results flagged for a closer look

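Among 74 genes of the lists checked for opposite calls with Dox in the 2 lines, 2 were found. ABCG1, which encodes a cholesterol exporter, had a log2 change of 0.69 in the shLSD1 line and of -0.69 in the shG9a line, at 0.957 and 2.16 FPKM without and with Dox in the first and 1.43 and 0.509 FPKM in the second. FADS1, which encodes a fatty acid desaturase, had log2 changes of 0.71 and -0.49. Each line is 1 library per condition, so the difference was not tested.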

How the results depend on the processing

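Each condition is 1 library, so no library could be left out and no replicate error exists. No paired analysis was possible because each condition has 1 library and no result comes from a test. Of 216 values of single members under the alternatives, 216 moved by less than 0.26 on the log2 scale, the SD over all genes of the difference between the lines without Dox, and no called value changed sign. Of 197 counts and medians, 171 stayed within 1.5 times the main count or that SD, and the others follow. With centring, SP2509 lowered 9 synthesis genes and 2 members, and Dox lowered 1 synthesis gene in shG9a. With upper-quartile scaling, SP2509 lowered 7 synthesis genes and 2 members and raised 1 synthesis gene, and Dox lowered 1 in shG9a. With a pseudocount of 0.1 FPKM, Dox lowered 1 synthesis gene in shG9a. At a threshold of 2-fold, SP2509 lowered 1 member and 4 synthesis genes, UNC0642 raised 0 members and raised 0 and lowered 0 synthesis genes, and both inhibitors raised 0 and lowered 2 members and raised 0 and lowered 3 synthesis genes. At the same threshold Dox raised 2 members and 1 synthesis gene in shLSD1, and 3 members and 7 synthesis genes in shG9a. The deposited term cholesterol biosynthetic process in place of the list was an alternative chosen after seeing the data. Of its 29 genes tested in the inhibitor arm, 19 fell with SP2509, 4 with UNC0642 and 14 with both. Among all genes, 39.9%, 16.9% and 31.7% were called lower there. Of its 32 tested with Dox, 18 rose in shLSD1 and 22 in shG9a, where 24.8% and 32.9% of all genes did. All these counts of the term stayed within 1.5 times the main ones. The counts that moved were 3 raised by SP2509, 2 by UNC0642 and 2 by both, and 1 lowered by Dox in shLSD1 and 3 in shG9a. The cause of these differences was not tested, apart from the stricter threshold, which by its construction calls fewer genes.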

Other observations

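Of 10 genes of fatty acid synthesis that SREBP-1 is known to drive, 8 rose and 0 fell with Dox in shLSD1, 7 rose and 1, FADS1, fell in shG9a, and 0 rose and 9 fell with SP2509. The shares over all genes were 24.8% and 32.9% higher with Dox and 39.9% lower with SP2509. After centring, 6 rose in shLSD1, 5 rose and 2 fell in shG9a, and 8 fell with SP2509. The centred shares of all genes were 17.0% higher in shLSD1, 22.5% higher and 22.5% lower in shG9a, and 34.9% lower with SP2509. With UNC0642 0 rose and 2 fell, near the 16.9% of all genes called lower. With both inhibitors 1, LPIN1, rose and 7 fell, where 31.4% of all genes were called higher and 31.7% lower. FASN, the gene of fatty acid synthase, was at 187 FPKM under vehicle, 26.9 with SP2509, 165 with UNC0642 and 45.0 with both, and went from 55.8 to 105 FPKM in shLSD1 and from 60.0 to 154 FPKM in shG9a. ACACA, the gene of acetyl-CoA carboxylase, fell by 2.28 on the log2 scale with SP2509 and by 2.42 with both, and rose by 1.08 and 0.90 with Dox.

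In the isoprenoid branch, which uses the units made before squalene, 1 of 6 genes rose and 0 fell with Dox in each line (COQ2 in shLSD1, PDSS1 in shG9a), 5 fell with SP2509, 0 were called with UNC0642 and 2 fell with both. Among all genes, 39.9%, 16.9% and 31.7% were called lower with SP2509, UNC0642 and both, so 2 of 6 lower with both is near that share. With Dox, 24.8% of all genes were called higher in shLSD1 and 32.9% in shG9a. After centring, 0 rose and 1, NUS1, fell in each Dox line and 3 fell with SP2509, where 34.9% of all genes did. The calls with Dox thus depend on the scaling. Among 5 genes of efflux and its LXR control, 2 rose with Dox in shLSD1, 1 rose and 2 fell in shG9a, 1 rose and 3 fell with SP2509, 2 rose and 1 fell with UNC0642, and 2 rose and 3 fell with both. Shares over all genes in that order were 24.8%, 32.9%, 21.0%, 18.2% and 31.4% higher and 12.3%, 17.6%, 39.9%, 16.9% and 31.7% lower. With so few genes, these counts are a description only. ABCA1, the gene of a cholesterol exporter, was at 2.07 FPKM under vehicle and 0.371 with SP2509, and went from 0.208 to 1.21 FPKM with Dox in shG9a. Of 5 genes of esterification and oxysterols, 2 had at least 1 FPKM, and of these NCEH1, which encodes a cholesteryl ester hydrolase, had log2 changes of 1.12 and 0.81 with Dox in shLSD1 and shG9a, and of 0.69, 0.67 and 1.76 with SP2509, UNC0642 and both.

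Of 12 genes of the endoplasmic reticulum stress response, 3 rose and 5 fell with Dox in shLSD1, 0 rose and 11 fell in shG9a, 1 rose and 10 fell with SP2509, 0 rose and 11 fell with UNC0642, and 3 rose and 8 fell with both. Over all genes, 12.3%, 17.6%, 39.9%, 16.9% and 31.7% were called lower in the same order. HSPA5, the gene of the chaperone BiP, was at 1462 FPKM under vehicle, 511 with SP2509, 251 with UNC0642 and 627 with both, and went from 1195 to 404 FPKM in shLSD1 and from 1551 to 102 FPKM in shG9a.

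Of the 8 squamous markers, 7 reached 1 FPKM in at least 1 library of each inhibitor comparison, 6 did in shLSD1 and 8 in shG9a. Of these, 6 rose and 0 fell with SP2509, 3 rose and 2 fell with UNC0642, and 3 rose and 3 fell with both. With Dox, 0 rose and 2 fell in shLSD1, and 4 rose and 2 fell in shG9a. In that order, 21.0%, 18.2%, 31.4%, 24.8% and 32.9% of all genes were called higher, and 39.9%, 16.9%, 31.7%, 12.3% and 17.6% lower. The marker list had no shared direction. Within it, KRT17 was at 1738 FPKM without and 265 FPKM with Dox in shLSD1, at 1596 and 158 FPKM in shG9a, and at 324, 3716, 806 and 594 FPKM with vehicle, SP2509, UNC0642 and both inhibitors. KRT5 went from 188 to 74.6 FPKM with Dox in shLSD1, the direction of KRT17, and from 177 to 312 FPKM in shG9a, the opposite one. The part of such differences in the changes of the cholesterol genes was not tested.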
